A study of Rattus norvegicus with 23 samples.

Results

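The comparison of lesioned with intact dorsal root ganglia (DRGs) at 48 h after a peripheral nerve lesion rested on 3 of the 23 two-color arrays of a rat time course, chosen by their titles. Lesioned L4 and L5 DRGs came from Long-Evans rats of postnatal day 20 to 24 whose sciatic nerve had been cut, and intact DRGs were the other sample on each array. Lesioned RNA was labeled with Cy5 and intact RNA with Cy3 on all 3 arrays, so no array exchanged the dyes. The labels also describe the material as cultured DRG cells, and their labeling text mentions cAMP-treated cultures, whereas the surgical text describes whole ganglia taken after the lesion. The time and lesion labels were followed here. The labels do not say whether the arrays came from separate animals or which animals gave the intact RNA, so a p-value reflects no more than how far these arrays scatter, which may be technical. Each value is the deposited ratio of the channels on a log2 scale. The file leaves its direction unsaid; following the dyes, a positive value is read as higher in lesioned DRGs. A ratio holds no level, so the ganglion could not be checked against its defining markers.

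A sensory neuron of the DRG sends one branch to the periphery and another into the spinal cord. Cutting the peripheral branch, the conditioning lesion, switches the neuron to a growth state that depends on transcription and lets the central branch grow better after a later injury. Galanin, neuropeptide Y, VGF, TIMP1 and GAP43 are among the proteins long known for their rise in injured sensory neurons or ganglia.

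All 5 of these conditioning lesion markers, which were chosen with earlier results of these data known, had a probe that rose at 48 h. The log2 estimates of these probes were 1.23 to 4.35, and over all tested probes 1.95% rose. Galanin (Gal), a peptide that is scarce in intact sensory neurons, had the largest of these changes. Its log2 ratio was 4.28, 3.89 and 5.48 on arrays 1, 2 and 3, a fitted 20.3-fold difference (log2 4.35 ± 0.40, standard error, SE; n = 3; adjusted p = 1.59e-05). These and the later adjusted p-values came from limma, with array weights and Benjamini-Hochberg adjustment over all probes tested. Array 3 gave the highest Gal value, and all 3 arrays lay far above 0. Neuropeptide Y (Npy), a peptide co-released with classical transmitters, measured 2.51 on array 1 and 3.10 on array 2 and had no value on array 3 (log2 2.78 ± 0.39, SE, n = 2, adjusted p = 0.000538). Vgf, which encodes a precursor of secreted peptides induced by nerve growth factor, measured 2.33, 3.47 and 3.05 with probe 1D09 (2.88 ± 0.37, adjusted p = 0.000241). The other Vgf probe, 52D09, was at 0.31 and did not pass (adjusted p = 0.807). Timp1, an inhibitor of matrix metalloproteinases, measured 2.83, 1.26 and 1.94 (2.09 ± 0.29, adjusted p = 0.00049). The arrays of Timp1 spread widely, with array 1 highest and array 2 lowest, but none came near 0. Gap43, the growth cone protein of regenerating axons, measured 1.28, 1.25 and 1.04 (1.23 ± 0.25, adjusted p = 0.00852). It was the smallest and the most even of these changes, a 2.34-fold rise. Gal, Vgf and Timp1 passed without any 1 of the arrays. Gap43 did not pass without array 1 (adjusted p = 0.132) or without array 2 (adjusted p = 0.126). It also did not pass once each plate was centered (adjusted p = 0.109), a setting described further on.

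**Figure D1:**
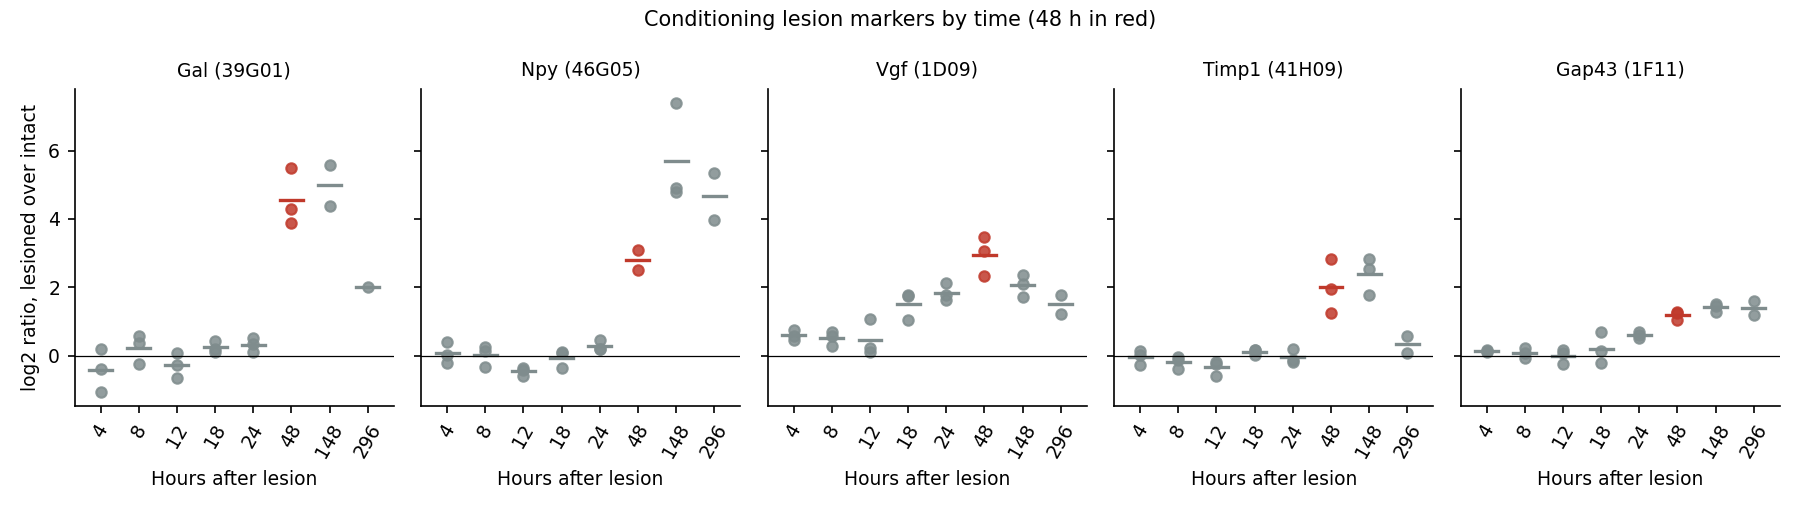
Log2 ratio of lesioned over intact DRGs for the 5 marker probes at each time after the lesion, 1 point an array and a bar for the mean, with 48 h in red. At 48 h every point lies above 1, whereas Gal, Npy and Timp1 lie between -1.1 and 0.6 on every array from 4 to 24 h.

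The promoters of 4 of the 5 markers were matched to RefSeq by symbol (build GRCr8, 250 bases before to 50 after the start). They are shown because the lesion response is tied to cAMP signaling, whose transcription factor CREB binds the element TGACGTCA or its first letters, TGACG. Capitals mark TGACG on either strand. In Vgf, a match on each strand joins into the whole element.
Gal (chr1:210084523-210084822, minus strand): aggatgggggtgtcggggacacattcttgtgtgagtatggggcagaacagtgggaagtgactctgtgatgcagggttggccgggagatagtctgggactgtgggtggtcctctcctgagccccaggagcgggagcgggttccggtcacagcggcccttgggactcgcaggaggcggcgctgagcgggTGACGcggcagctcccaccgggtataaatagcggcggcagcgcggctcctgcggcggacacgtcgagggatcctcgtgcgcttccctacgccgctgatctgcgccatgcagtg
Vgf (chr12:25276971-25277270, minus strand): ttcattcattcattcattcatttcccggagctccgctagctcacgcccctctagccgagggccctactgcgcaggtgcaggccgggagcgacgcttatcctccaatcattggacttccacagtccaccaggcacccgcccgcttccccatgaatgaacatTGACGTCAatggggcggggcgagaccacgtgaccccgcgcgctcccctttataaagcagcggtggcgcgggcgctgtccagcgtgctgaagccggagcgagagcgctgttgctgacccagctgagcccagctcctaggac
Timp1 (chrX:3771073-3771372, minus strand): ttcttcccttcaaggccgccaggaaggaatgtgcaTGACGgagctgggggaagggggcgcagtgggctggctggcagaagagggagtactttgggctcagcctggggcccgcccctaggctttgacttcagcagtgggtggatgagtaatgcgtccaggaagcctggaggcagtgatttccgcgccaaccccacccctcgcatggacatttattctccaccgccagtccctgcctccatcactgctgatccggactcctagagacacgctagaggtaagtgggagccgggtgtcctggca
Npy held neither motif in this window, and Gap43 was not matched. Of all 33469 promoters of this length, 21.2% held TGACG and 1.83% held TGACGTCA. Among genes tested at 48 h whose promoter was matched, TGACG stood in 27.8% of 2988. It stood in 39.1% of 64 promoters of genes with a probe called higher and in 43.9% of 57 with a probe called lower, and these shares were not tested. TGACGTCA stood in 2.24% of the 2988, in 3.12% of the 64 (2 promoters) and in 8.77% of the 57 (5 promoters). Motifs of the transcription factors AP-1 (TGANTCA) and STAT (TTCNNNGAA), with N any base, were also counted. The AP-1 motif stood in 6.49% of the 2988, 6.25% of the 64 and 7.02% of the 57. The STAT motif stood in 7.06%, 6.25% and 3.51% of these sets. A match is only a string of letters and says nothing about binding.

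Over all genes, 177 of the 4471 tested probes, 3.96%, differed between lesioned and intact DRGs at 48 h. Of these, 87 were higher (1.95%) and 90 lower (2.01%) in lesioned DRGs, and 791 probes had an unadjusted p under 0.05. The 3 arrays were of unequal quality. Array 1 measured 4976 probes with an SD of the log2 ratio of 0.913, array 2 measured 4353 with an SD of 1.22, and array 3 measured 3131 with an SD of 1.48. Their weights in the fit were 0.673, 0.554 and 0.265. Ratios ranked alike only in part, with a Spearman correlation across probes of 0.362 for arrays 1 and 2, 0.301 for arrays 1 and 3, and 0.336 for arrays 2 and 3. These probes share the arrays and are not replicates. All 3 arrays measured 2925 probes, of which 136 were called, 133 of them with 1 sign on every array. Of all 2925, 1244 had 1 sign on every array. The calls rest on the same values, so their agreement in sign is no separate evidence. Another 1546 probes had 2 arrays and 41 calls. A fit of the 3 arrays alone called 1 probe, 53F06, with 618 at an unadjusted p under 0.05, so the calls rest on the spread that limma estimated over the whole time course. Leaving out array 1, 2 or 3 left 58, 49 and 113 calls. Checks by name covered 45 named probes that passed at 48 h. Slc22a4, Uck2, Acox2, Or9s23 and Ifitm3, named only for a difference between times, also passed but were not among the 45. Of the 45, 43 could be tested without each array in turn, and 17 passed every time. When the array class, full or sparse by its missing probes, entered as a block, 56 probes passed. Of the 45, the probes of Gal, Npy, Vgf, Timp1, Stmn4, Hspb1 (both), Ihh, Ptbp2, Ptbp3, Ralgps2, Rps6kb1, Artn, Vegfa, Ccnd1, Map2k1 and Cd244l1 were among these 56. The others of the 45 lost their call under that block. Array 1 was the only full array at 48 h, and all arrays at 148 h were sparse. Only 48 h and 296 h held both classes, so the 48 h estimate under the block leans on array 1. Without a value on array 2 at 296 h it equals array 1, as for Cacna2d1 (1.502) and Cacna1i (-1.60). The block therefore cannot show that a result holds across the arrays.

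Several genes of the regeneration-associated list rose. Of its 35 tested genes, 5 rose (Reg3b, Cacna2d1, Stmn4, Hspb1 and Gap43) and none was called lower. The list median was 0.43, beside 0.03 over 3677 tested genes, of which 2.04% were called higher and 1.85% lower. Reg3b, a secreted lectin that injured sensory neurons express, measured 2.08, 2.92 and 5.21 with probe 32G07 (log2 2.95 ± 0.68, SE, n = 3, adjusted p = 0.0214). Array 3 lay far above the others, and without it the estimate was 2.50 (adjusted p = 0.0842). Reg3b also missed the threshold without array 2 (adjusted p = 0.0743). Cacna2d1, the calcium channel subunit that binds gabapentin, measured 1.50, 4.02 and 2.76 (2.66 ± 0.40, adjusted p = 0.00184). Array 2 was the highest and array 1 the lowest, and with array class as a block Cacna2d1 did not pass (1.502, adjusted p = 0.319). Stmn4, a neuronal stathmin that destabilizes microtubules, measured 2.29, 2.24 and 1.90 (2.20 ± 0.29, adjusted p = 0.000273). Its arrays agreed closely, as did those of Hspb1, the small heat shock protein that protects injured neurons. Hspb1 measured 1.49, 1.67 and 1.93 with probe 9H02 (1.64 ± 0.22, adjusted p = 0.000273) and 1.52, 1.23 and 1.13 with probe 52D12 (1.34 ± 0.26, adjusted p = 0.00696). Probe 52D12 did not pass without array 1 (adjusted p = 0.136) or array 2 (adjusted p = 0.0979).

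Atf3, the injury-induced transcription factor that heads this response, had a value on array 1 only, log2 3.70, and could not be tested at 48 h. Sox11, a transcription factor of axon growth, likewise had a value of 1.34 on array 1 alone. Other members missed the threshold. Cd44, a hyaluronan receptor, measured 1.35, 1.04 and 1.90 (adjusted p = 0.0774), and Gfra1, a receptor subunit for GDNF, measured 0.48, 2.35 and 1.59 (adjusted p = 0.0835). On the other side of 0, Dpysl3, which guides growth cones, measured -0.58, -5.44 and 0.54 (-2.19, adjusted p = 0.091), with array 2 far below the others. Its relative Dpysl2 was at -1.10 (adjusted p = 0.137) and Rgs4, a regulator of G proteins, at -1.48 (adjusted p = 0.11). Arginase 1 (Arg1), the polyamine synthesis enzyme linked to cAMP-driven growth, measured 1.48, 1.01 and 1.24, yet with an SE of 0.73 its adjusted p was 0.398. That SE draws on the scatter at all times, and at 4 h Arg1 measured -0.70, -0.15 and 2.49. The alpha-tubulin gene Tuba1a measured -0.21 and -0.14 with probe 28E09, which had no value on array 3. Stmn2, a stathmin of growth cones, measured 0.09, -0.11 and 0.21.

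**Figure D2:**
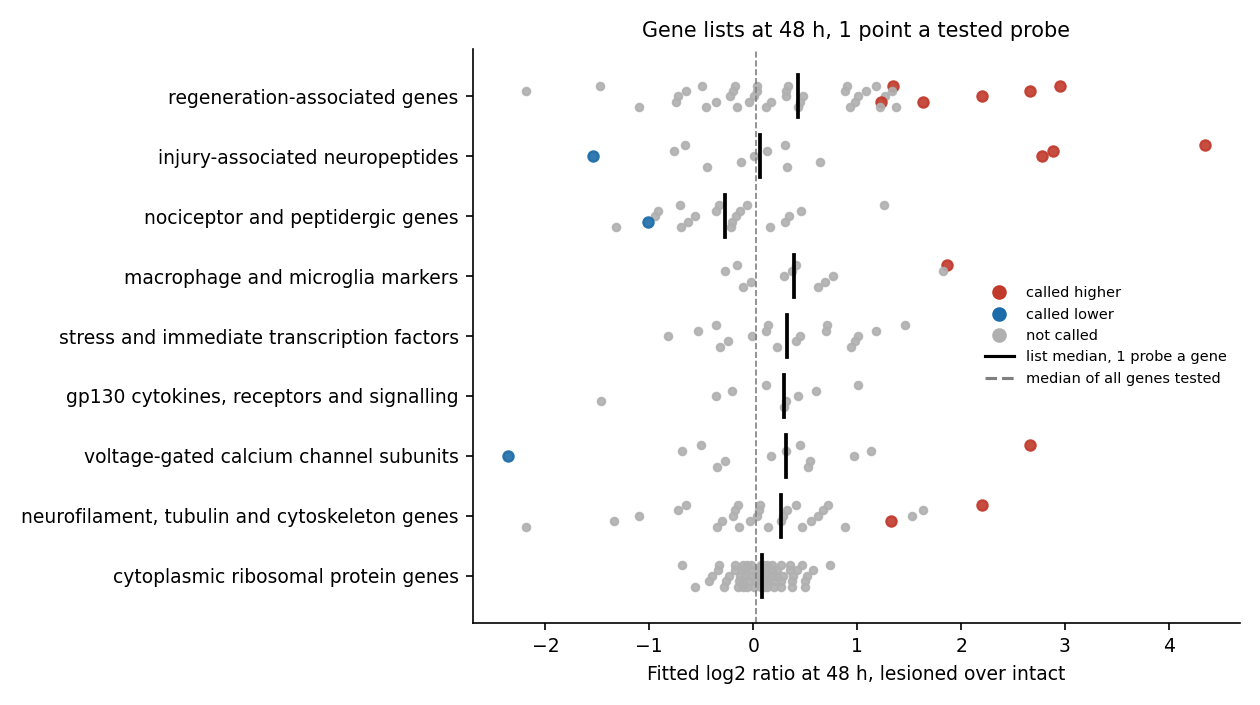
Fitted log2 ratio at 48 h, lesioned over intact DRGs, for tested probes of 9 gene lists, with called probes in red (higher) and blue (lower), list medians as black bars and the median of all genes as a dashed line. Of the 9 lists, the regeneration-associated and neuropeptide lists hold the most red points. All lists were written with earlier results of these data known. The 64 ribosomal protein genes lie within 0.74 of 0.

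Neuropeptides changed in both directions. Of 12 tested genes of the injury-associated neuropeptide list, Gal, Vgf and Npy rose and 1 fell, and the median was 0.07. The shares over all tested genes were 2.04% higher and 1.85% lower. Cholecystokinin (Cck) fell, with -1.73, -1.53 and -1.09 on the arrays (-1.54 ± 0.39, adjusted p = 0.0342). Its probe lies on plate 36, where most probes were low, and with each plate centered the estimate was -0.69 (adjusted p = 0.401). Cck also missed the threshold without array 1, 2 or 3 (adjusted p = 0.309, 0.276 and 0.0664). Vasoactive intestinal peptide (Vip), which injured sensory neurons also make, measured 0.91, 0.64 and -0.06 (0.64 ± 0.72, adjusted p = 0.733). The other peptide genes of the list, Chgb, Chga, Penk, Pdyn, Adcyap1, Scg2 and Crh, had estimates between -0.76 and 0.33 and were not called.

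Nociceptor genes lay mostly below 0. In the list of 18 tested nociceptor and peptidergic genes, 1 fell, none was called higher, and the median was -0.27. Estimates ran from -1.32 to 1.26. Over all tested genes, 1.85% were called lower, and the median was 0.03. Tac1, which encodes substance P, measured -1.37, -0.75 and -0.64 (-1.01 ± 0.27, adjusted p = 0.0391). The 3 arrays had 1 sign, but Tac1 missed the threshold without array 1, 2 or 3 (adjusted p = 0.469, 0.228 and 0.078). Somatostatin (Sst), a peptide of small sensory neurons, measured -1.92, -0.96 and -0.53 (adjusted p = 0.174). Scn10a, the sodium channel of nociceptors, measured -0.59, -0.62 and -1.12 (adjusted p = 0.314). The probes of the calcitonin gene-related peptide gene Calca gave different sizes, with an estimate of -0.70 for probe 35C05 and -0.06 for probe 52C03. In the sodium channel list, 8 genes were tested, none was called, and estimates ran from -0.72 to 0.04.

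Of 11 tested calcium channel subunits, 1 rose, 1 fell and 9 were not called. Among all tested genes, the shares were 2.04% higher and 1.85% lower. Cacna2d1 rose as described, and Cacna1i, the T-type channel Cav3.3, fell, with -1.60, -3.49 and -1.90 on the arrays (-2.36 ± 0.36, adjusted p = 0.00105). Cacna1i passed without any 1 of the arrays, and with plate centering it was -1.54 (adjusted p = 0.018), but with array class as a block it did not pass (-1.60, adjusted p = 0.291). Of the cytoskeletal list, with 27 genes tested and a median of 0.27, Stmn4 and the gamma-actin gene Actg1 rose. Actg1 measured 0.72, 2.10 and 1.25 (1.33 ± 0.29, adjusted p = 0.0176), and missed the threshold without array 2 (adjusted p = 0.213) and with plate centering (adjusted p = 0.0974). The neurofilament genes Nefl, Nefm and Nefh, the structural filaments of large axons, had estimates from -0.35 to 0.55 and were not called.

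Signaling genes gave scattered calls, and over all tested genes 2.04% were called higher and 1.85% lower. None of 9 tested genes of the gp130 list, the receptor system of interleukin-6 and leukemia inhibitory factor, was called, and the median was 0.30. Stat3, its transcription factor, measured 0.78, 1.64 and 0.27 (adjusted p = 0.187), and the receptor subunit Il6st measured -0.48, -0.30 and -0.17. Il6 measured 0.32, 0.29 and 0.37. The study, which also used qPCR, reports a strong rise of Il6 mRNA at this time after the lesion. It states that two-color arrays have a narrower dynamic range than qPCR. Why the Il6 probe stayed near 0 was not tested. Jak2 had a value of 2.28 on array 1 only. Among 39 tested genes of cAMP and G protein signaling, Rgs2, which speeds the turn-off of G proteins, rose, with 0.69, 2.00 and 2.65 on the arrays (1.52 ± 0.34, adjusted p = 0.018). Rgs2 missed the threshold without array 2 (adjusted p = 0.0979) or array 3 (adjusted p = 0.0649). The cAMP phosphodiesterase gene Pde4a fell, with -1.53, -1.22 and -1.94 (-1.49 ± 0.38, adjusted p = 0.037), and missed the threshold without array 1, 2 or 3 (adjusted p = 0.182, 0.142 and 0.111). Adcy2, an adenylyl cyclase that makes cAMP, fell as well with probe 52E09, which measured -1.82, -1.83 and -2.75 (-1.99 ± 0.49, adjusted p = 0.0288). Adcy2 missed the threshold without array 1, 2 or 3 (adjusted p = 0.126, 0.126 and 0.098) and with plate centering (adjusted p = 0.0944), and its other probe, 20A02, was at 0.31 (adjusted p = 0.788). Cdkn1a, the cell cycle inhibitor p21, rose with probe 49H06, which measured 0.99, 1.24 and 1.28 (1.13 ± 0.29, adjusted p = 0.0352). It too missed the threshold without array 1, 2 or 3 (adjusted p = 0.152, 0.213 and 0.095), and its other probe, 29D11, was at 0.27 (adjusted p = 0.94). Among receptors for fast transmission, the AMPA receptor gene Gria1 rose, with 1.88, 1.42 and 2.89 (1.89 ± 0.43, adjusted p = 0.0214). Gria1 missed the threshold without array 1, 2 or 3 (adjusted p = 0.104, 0.0622 and 0.0853) and with plate centering (adjusted p = 0.0698).

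The remaining lists held at most 1 call in each direction, beside 2.04% higher and 1.85% lower over all tested genes. The membrane fusion gene Vamp3 rose, with 1.002, 2.21 and 0.90 on the arrays (1.43 ± 0.32, adjusted p = 0.0182), whereas Syn1, which tethers synaptic vesicles, fell, with -1.07, -0.76 and -0.95 (-0.94 ± 0.25, adjusted p = 0.0403). The median of the 42 synaptic genes was -0.01. Vamp3 missed the threshold without array 1 or 2 (adjusted p = 0.0985 and 0.334) and Syn1 without array 1, 2 or 3 (adjusted p = 0.295, 0.2 and 0.105). With plate centering neither passed (adjusted p = 0.0629 for Vamp3 and 0.155 for Syn1). Artemin (Artn), a ligand of the GDNF family, fell, with -3.25, -0.30 and -1.76 (-1.89 ± 0.52, adjusted p = 0.049), and missed the threshold without array 1, 2 or 3 (adjusted p = 0.532, 0.0506 and 0.13). The kainate receptor gene Grik1 fell, with -1.42, -1.52 and -0.65 (-1.32 ± 0.33, adjusted p = 0.0342), and so did the growth factor gene Tgfb3, with -1.12, -2.16 and -1.60 (-1.59 ± 0.35, adjusted p = 0.0158). Grik1 missed the threshold without array 1 or 2 (adjusted p = 0.335 and 0.361) and with plate centering (adjusted p = 0.286), and Tgfb3 without array 1 or 2 (adjusted p = 0.0654 and 0.202) and with plate centering (adjusted p = 0.0944). Timp1 was the 1 call of 23 proteases and inhibitors, and Hspb1 the 1 call of 20 heat shock genes. No call was made among 16 stress and injury transcription factors (median 0.32), 28 antioxidant (0.34), 24 apoptosis (-0.17), 13 cholesterol synthesis (0.14), 28 oxidative phosphorylation (0.07) or 64 ribosomal protein genes (0.08).

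Of the genes that the study's text names or that form its cAMP panel, 16 were tested. Vgf, Mag and Gap43 rose, and none was called lower, beside 2.04% higher and 1.85% lower over all tested genes. The study may have picked some of these 16 genes on these samples, so the count is not independent evidence of a direction. The chemokine gene Ccl2 measured 0.82, 1.46 and 1.47 with probe 26C01 (1.18 ± 0.33, adjusted p = 0.0593) and 0.25, 0.88 and 0.05 with probe 52C04. Metallothionein 1 (Mt1), a metal-binding protein, was at 0.94, -0.04 and -0.46 with its 3 probes, none of them called. Slpi, a secreted protease inhibitor, had a value of 0.52 on array 1 alone.

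Among markers of other cell types, C1qb, Mag and Prf1 were called. Of all tested genes, 2.04% were called higher and 1.85% lower. Of 12 tested macrophage and microglia markers, the complement gene C1qb rose, with 2.43, 1.58 and 1.02 on the arrays (1.86 ± 0.50, adjusted p = 0.0437), and the median was 0.39. C1qb missed the threshold without array 1, 2 or 3 (adjusted p = 0.483, 0.306 and 0.078) and with plate centering (adjusted p = 0.0899). The leukocyte gene Laptm5 measured 0.69, 2.01 and 4.30 (adjusted p = 0.0835), whereas Spp1, Cyba and Ctss had estimates between -0.28 and -0.02. Of 13 myelinating Schwann cell genes, the myelin gene Mag was called with probe 33A02 (2.19, 0.99 and 0.79; adjusted p = 0.038) and not with probe 32H06 (-1.06, 0.59 and -0.50), and the list median was -0.09. Without array 1, 2 or 3 the Mag probe 33A02 had an adjusted p of 0.495, 0.213 and 0.0707, and with plate centering 0.0738. Perforin (Prf1), a killer lymphocyte gene, was the single call of 11 lymphocyte markers. It was lower, with -3.16 on array 1 and -5.34 on array 3 (-3.78 ± 0.85, SE, n = 2, adjusted p = 0.0184). No call was made among 12 satellite glia, 20 fibroblast and matrix, 11 skeletal muscle, 5 blood cell or 16 endothelial genes, whose list medians lay between -0.29 and 0.21. In whole ganglia, a change in the number of cells of a type and a change in RNA per cell cannot be told apart, and the part of other cells in the results was not tested.

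The 12 highest and 12 lowest named probes were taken from 59 higher and 59 lower calls that had 1 sign on all 3 arrays. Gal, Vgf, Reg3b, Cacna2d1, Stmn4 and Cacna1i among them are described with their lists. Ihh, the Indian hedgehog ligand, rose, with 2.88, 3.50 and 3.03 on the arrays (3.14 ± 0.35, adjusted p = 0.000197). The GTPase gene Rhoq, whose product TC10 acts in membrane addition at growing neurites, measured 2.13, 2.39 and 3.83 (2.53 ± 0.46, adjusted p = 0.0037). Ptbp2, a splicing regulator of neurons, measured 3.11, 1.28 and 2.44 (2.32 ± 0.32, adjusted p = 0.000538). These 3 genes passed without any 1 of the arrays, but Rhoq did not pass with array class as a block (1.78, adjusted p = 0.308). The paralog Ptbp3 was lower, with -5.47, -3.37 and -1.003 (-3.90 ± 0.66, adjusted p = 0.00255), and its arrays spread widely. Ptbp3 missed the threshold without array 1 (adjusted p = 0.227) or array 2 (adjusted p = 0.106). Nxf1, an mRNA export factor, measured 1.99, 2.78 and 1.74 (2.24 ± 0.39, adjusted p = 0.0029), and missed the threshold without array 1 (adjusted p = 0.0534) or array 2 (adjusted p = 0.104).

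Single arrays carried some of these values. Ralgps2, an exchange factor of Ral GTPases, measured 4.80 on array 1 but 1.20 and 0.46 on the others, and without array 1 its estimate was 0.83 (adjusted p = 0.641). A4galt, a glycolipid synthase gene, measured -2.07 and -1.97 on arrays 1 and 3 but -8.53 on array 2, and without array 2 its estimate was -2.02 (adjusted p = 0.061). Ralgps2 also missed the threshold without array 2 (adjusted p = 0.111), whereas A4galt passed without array 1 or array 3. With array class as a block, A4galt did not pass (adjusted p = 0.254). Map2k1, the kinase MEK1 of the MAP kinase cascade, was lower and even, with -2.84, -3.46 and -3.79 (-3.24 ± 0.38, adjusted p = 0.000146). Cd244l1, related to a receptor of killer lymphocytes, was lower with -2.71, -3.09 and -3.61 (-3.01 ± 0.40, adjusted p = 0.000273). Map2k1 and Cd244l1 passed without any 1 of the arrays and lie on plate 36. The matrix gene Ccn1, the carboxypeptidase gene Cpb1 and the guidance ligand gene Efna5 were lower as well, with estimates of -3.29, -3.09 and -2.39. All of these missed the threshold without array 2, at an adjusted p of 0.166 for Ccn1, 0.0739 for Cpb1 and 0.12 for Efna5. Without array 1 or array 3, Cpb1 had an adjusted p of 0.0985 and 0.0601, and Efna5 of 0.303 and 0.101. The protocadherin gene Pcdhb12 was lower with probe 43C05 (-1.95, -3.05 and -4.66; adjusted p = 0.00537). The other Pcdhb12 probe, 43D07, was at -1.33 and was not called (adjusted p = 0.0881). Pcdhb12 belongs to a cluster of similar genes, and no probe sequence was used here, so its signal may not be its own.

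**Figure D3:**
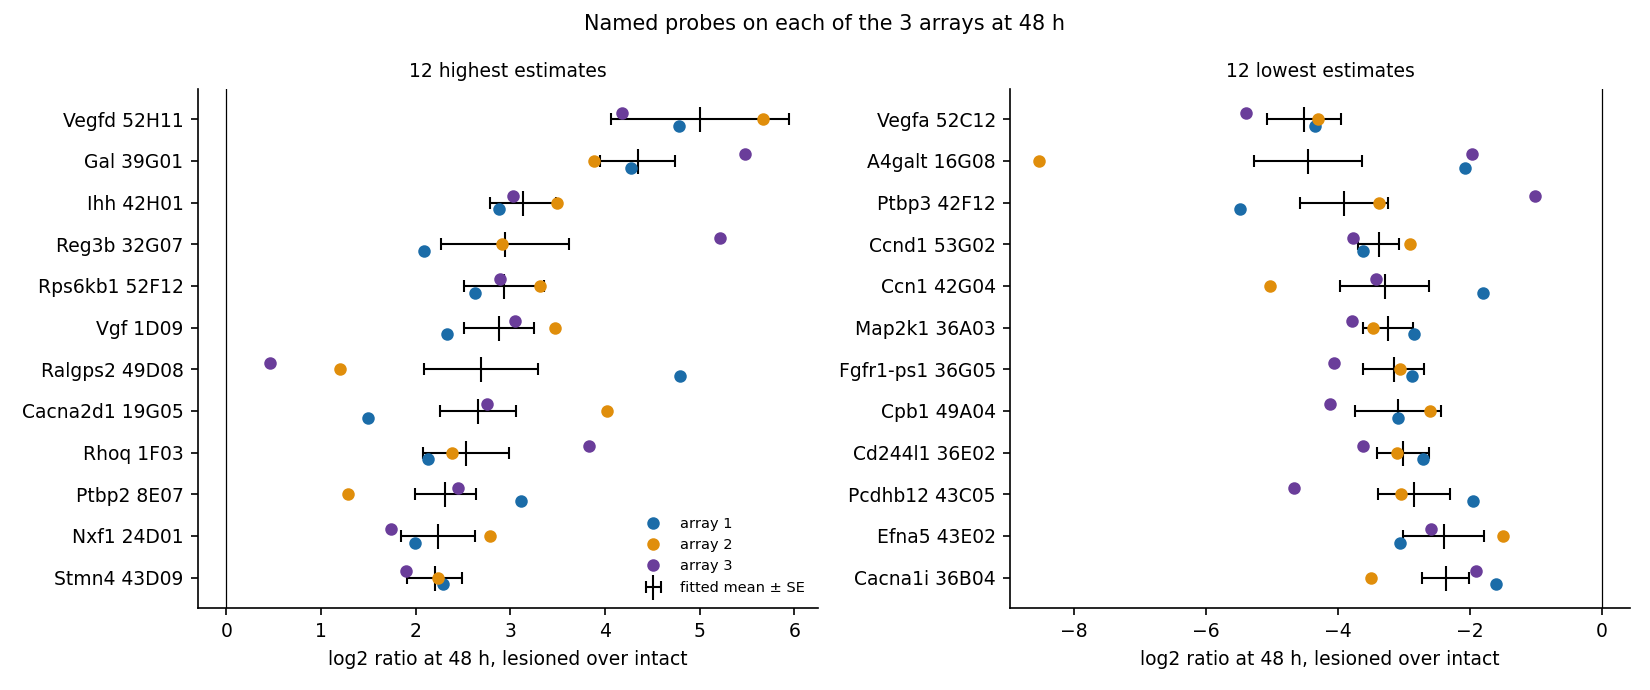
Log2 ratio at 48 h, lesioned over intact DRGs, of the 12 highest and 12 lowest named probes on each array (colored points), with the fitted mean and its SE in black. Stmn4, Ihh and Map2k1 have close points, whereas Ralgps2 and A4galt have 1 array at 4.80 and -8.53.

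The next question was which of these differences were already there in the first hours. On the 4392 probes measured at both ends, 42 differed at 48 h from the mean of 4, 8 and 12 h (0.956%), 32 higher and 10 lower, with 552 at an unadjusted p under 0.05. With the arrays scaled to 1 spread, 10 differed, all higher. A probe of each of the 5 markers was among the 42. Gal stood 4.47 ± 0.41 above the first hours (SE, adjusted p = 4.04e-05), Npy 2.92 ± 0.40 (adjusted p = 0.000992), Timp1 2.26 (adjusted p = 0.000778), Vgf 2.34 (adjusted p = 0.00529) and Gap43 1.14 (adjusted p = 0.0392). With scaling, the differences of Vgf (adjusted p = 0.0713) and Gap43 (adjusted p = 0.193) no longer passed. Without array 2 the difference of Vgf had an adjusted p of 0.0994, and that of Gap43 reached 0.282, 0.297 and 0.078 without array 1, 2 or 3. Stmn4 (2.37), Hspb1 (1.81 with probe 9H02), Cacna2d1 (2.22), Cdkn1a (1.33) and Actg1 (1.35) were also higher at 48 h than in the first hours, and Cacna1i was lower (-1.97).

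Some probes were already far from 0 in the first hours. Of 167 called probes that could be compared, 42 differed from the first hours in the direction of the 48 h call and none in the opposite one. The calls and these differences share the 48 h values, so that direction was largely set in advance. For 14 of the 167, the mean of the first hours was nearer to the value at 48 h than to 0. These 14 included some of the most extreme estimates. The Vegfd probe 52H11, for a growth factor of lymphatic vessels, measured 4.78, 5.67 and 4.18 at 48 h, and its means at 4, 8, 12, 18 and 24 h were 2.98, 3.42, 3.42, 4.28 and 4.00. Its 48 h call was lost without array 1 (adjusted p = 0.0832), without array 2 (adjusted p = 0.12) and with scaling (adjusted p = 0.0739). The Vegfa probe 52C12, for the growth factor of blood vessels, measured -4.35, -4.29 and -5.39 at 48 h, with means of -2.29, -2.65, -3.25, -4.51 and -3.12 at those times. The Ccnd1 probe 53G02, for cyclin D1, measured -3.61, -2.91 and -3.76 at 48 h and had means of -3.24, -3.31, -3.38, -3.48 and -3.76. Its 48 h value differed from the first hours by -0.05 (adjusted p = 0.98). The Rps6kb1 probe 52F12, for the ribosomal S6 kinase, was high throughout, with a 48 h estimate of 2.93. The probe for the pseudogene Fgfr1-ps1 was low throughout (-3.15 at 48 h), and its signal may come from Fgfr1 itself. Other probes of Vegfd, Vegfa, Ccnd1 and Rps6kb1 had 48 h estimates of -0.24, -0.52, -0.71 and 0.38, none of them called. All arrays had the dyes the same way round, so a lesion effect and a fixed dye effect of a probe cannot be told apart within these values.

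**Figure D4:**
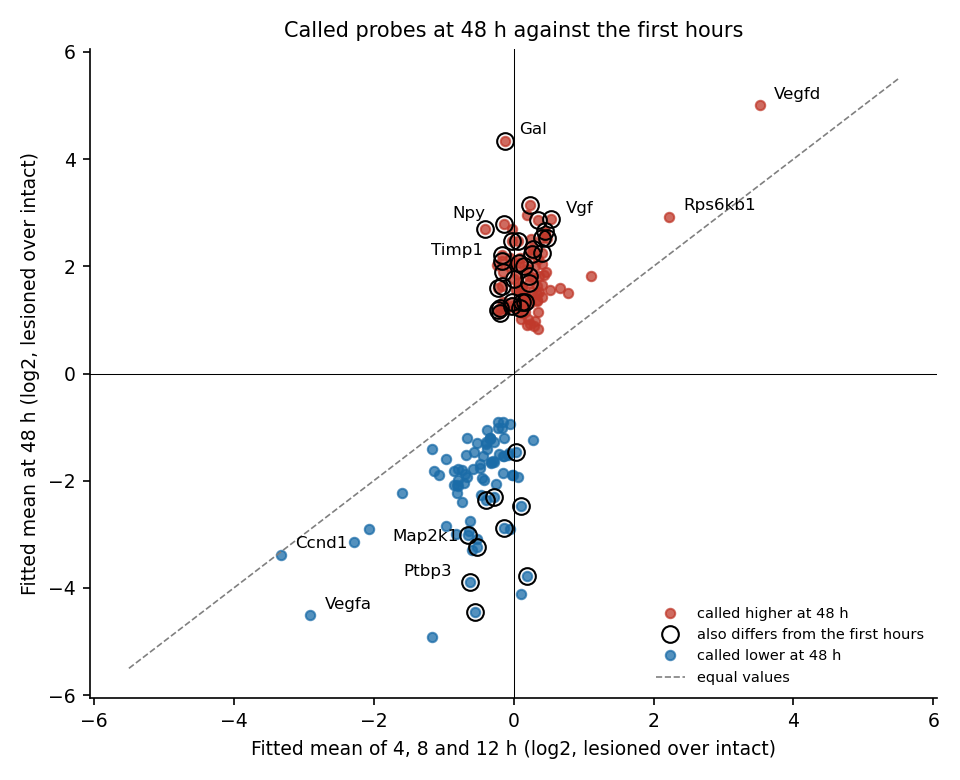
Fitted log2 ratio at 48 h against the fitted mean of 4, 8 and 12 h, lesioned over intact DRGs, for the 167 called probes that could be compared; rings mark the 42 whose difference passed. Gal, Npy and Timp1 stand on the vertical line at 0, whereas Vegfd, Rps6kb1, Vegfa and Ccnd1 lie toward the dashed line of equal values.

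Between 24 h and 48 h, 11 of 4419 probes differed (0.249%), 8 higher and 3 lower at 48 h, with 440 at an unadjusted p under 0.05. Scaling left 2 of them, Gal and Or9s23. With it, the differences of Npy (adjusted p = 0.258), Timp1 (adjusted p = 0.0968) and Ihh (adjusted p = 0.161) no longer passed, and with the class block those of Npy (adjusted p = 0.157) and Ihh (adjusted p = 0.221) did not. Gal accounted for the largest rise, with 4.28, 3.89 and 5.48 at 48 h, against 0.51, 0.33 and 0.11 at 24 h (difference 4.07 ± 0.45, SE, adjusted p = 0.000547). No Gal array at 24 h came near any at 48 h. Npy had a mean of 2.81 at 48 h, against 0.28 at 24 h (difference 2.53 ± 0.44, adjusted p = 0.0185), and Timp1 of 2.01 at 48 h, against -0.04 at 24 h (difference 2.10, adjusted p = 0.00812). The difference of Timp1 missed the threshold without array 1 at 48 h (adjusted p = 0.107). Ihh was also higher, with a mean of 3.13 at 48 h, against 0.45 at 24 h (difference 2.67 ± 0.40, adjusted p = 0.00812), and missed the threshold without array 1 or 2 at 48 h (adjusted p = 0.0919 and 0.0969). Vgf, Gap43 and Stmn4 showed smaller steps, with means at 48 h of 2.95, 1.19 and 2.14, against 1.85, 0.60 and 0.93 at 24 h, and none of these differences passed. Between 148 h and 48 h no probe of 3090 passed (0%), with 225 at an unadjusted p under 0.05 and 70 calls with equal weights for all arrays. All 3 arrays at 148 h lacked many probes, as arrays 2 and 3 did at 48 h, so time and array quality overlap in this contrast. Npy had the larger value at 148 h, with a mean of 2.81 at 48 h, against 5.70 at 148 h (fitted difference -2.58, adjusted p = 0.102). Gal had a mean of 4.55 at 48 h, against 4.98 at 148 h over the 2 arrays with a value.

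The calls in the lower direction clustered by plate, the source plate of a probe that its name gives. On 18 of the 53 plates the median log2 ratio was below 0 on all 3 arrays. These plates held 35.8% of the tested probes but 70 of the 90 lower calls and 13 of the 87 higher calls. On plate 36, which holds Map2k1, Cd244l1, Cacna1i, Cck and Fgfr1-ps1, 17 of 95 tested probes were called, all of them lower, and the plate medians were -0.66, -0.94 and -1.11 on arrays 1, 2 and 3. Its medians on the arrays of 4, 8 and 12 h were also below 0, from -0.51 to -0.23. Plate 53 had medians of -0.40, -1.17 and -2.96, so array 3 stood apart there. Control spots of Gapdh, a glycolytic gene, stood in the corner well of 51 plates and were not called on any, with values from -0.27 to 0.23 on single arrays. On plate 36 that Gapdh spot measured 0.06, 0.12 and 0.06. When the values of each plate were centered on the plate median of the array, 87 probes were called, 52 higher and 35 lower, in place of 87 higher and 90 lower, and 77 of them were shared with the 177. Gal, Npy, Vgf, Timp1, Reg3b, Cacna2d1, Stmn4, Hspb1, Tac1 and Map2k1 were among those still called. Of the 45 named probes checked by name, 33 still passed. The part of the plates in the lower calls was not tested.

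**Figure D5:**
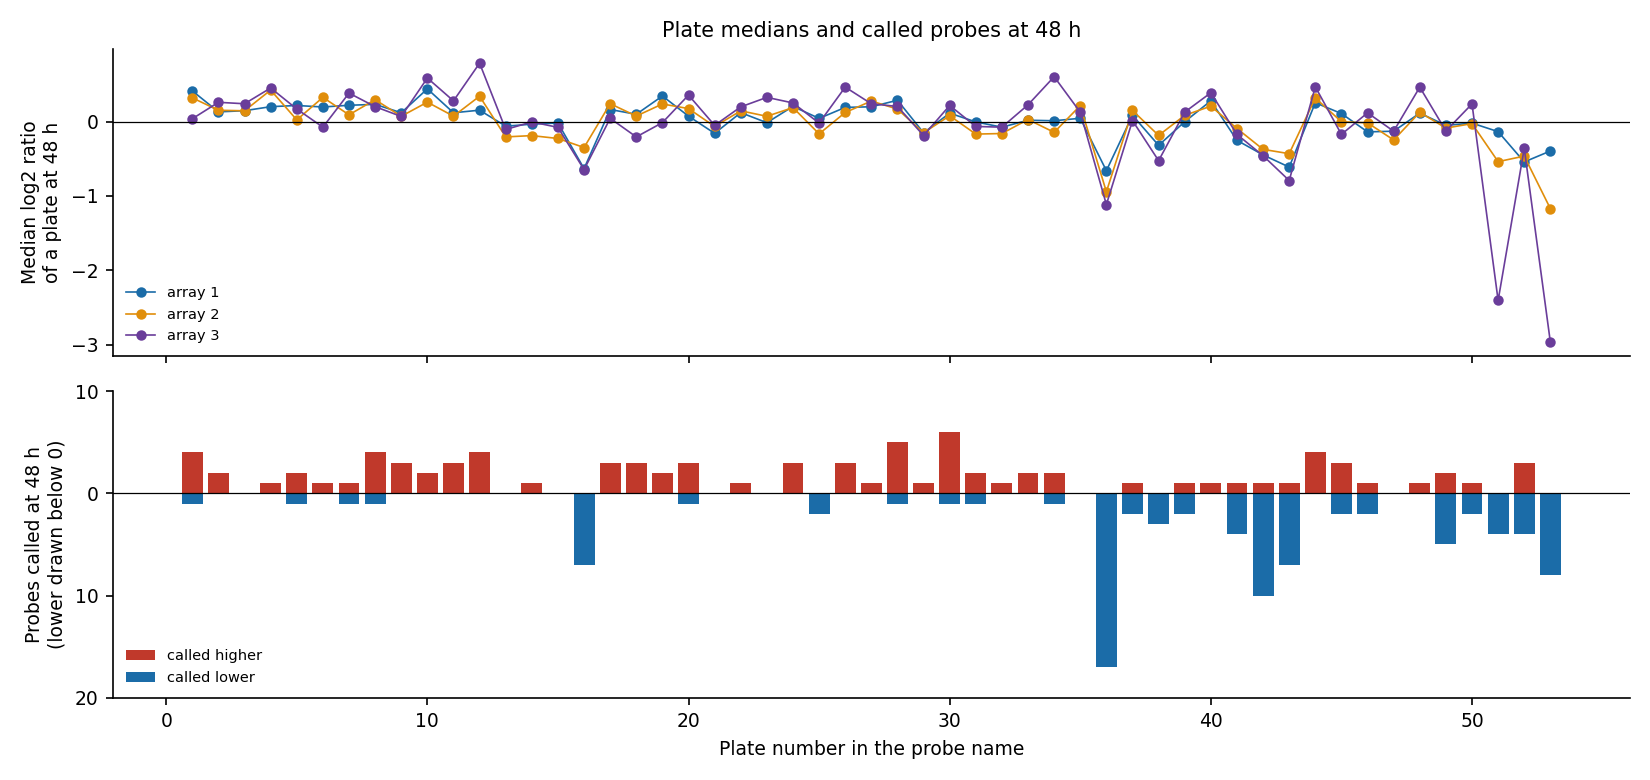
Upper panel, median log2 ratio at 48 h of each plate of probes on arrays 1 to 3; lower panel, number of probes called higher (upward) or lower (downward) on each plate. The 17 downward calls of plate 36 coincide with medians of -0.66, -0.94 and -1.11.

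Probes of the same gene did not always move together. Of 168 genes with at least 2 tested probes, 15 had a call, and all probes were called for 1 of them, Hspb1. No gene had calls in opposite directions. The second probe of Vgf, 52D09, measured 0.28, 0.35 and 0.29 (0.31 ± 0.45, adjusted p = 0.807), far below the 2.88 of probe 1D09. The second probe of Reg3b, 52G12, had an estimate of -0.22 (adjusted p = 0.733). Which probe of a pair follows the transcript was not tested.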

How the data were processed

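The authors deposited 1 linear ratio per probe and array, the quotient of the Cy5 and Cy3 channels of a spotted-oligonucleotide array with dendrimer labeling. How scans were corrected and normalized is not given in the sources used here. Only ratios were at hand, so spot brightness over background could not be judged and precision depends on how many arrays there were. Ratios of 5088 probes were converted to log2 without a pseudocount. GEO's platform annotation gave 1 symbol to 4423 probes, several to 2 and none to 663.

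One linear model per probe over all 23 arrays estimated the effect at each time (limma 3.58.1, R 4.3.3), using array weights and a moderated variance. Array weights were used because the arrays differed widely in spread. The fit was also run on simulated data drawn from its own variances and weights. Those data held no plate shifts or outlying arrays, so that run cannot show how the fit handles them. Probes needed 2 arrays at each time of a contrast. Tests were two-sided, with Benjamini-Hochberg adjustment and a threshold of 0.05. The SE is that of the model, which borrows from other times and probes. Probes are given by name, and a list median uses 1 probe a gene, the one measured on most arrays.

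Named genes were the 5 markers, the 12 highest and 12 lowest called probes of 1 sign on 3 arrays, up to 6 called members of each of 31 lists, the genes of the study's text and of the gp130 list, and the 5 most extreme on each side of a difference between times. Members and lists were chosen with earlier results of these data known, and no list was tested. Alternatives covered weights, filters, centering, scaling, blocks, left-out arrays and a plain t-test on each probe's 48 h values. Plate centering and a fit of full arrays, those lacking at most 200 probes, were chosen after seeing the data.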

Additional observations from a re-analysis of the deposited data

Results flagged for a closer look

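Up to 5 of the most extreme differences on each side that passed limma's test between times are gathered here with their log2 size, as the 48 h value minus the other time. Against 24 h, Gal (4.07), Ihh (2.67), Npy (2.53), the carnitine and organic cation transporter gene Slc22a4 (2.41) and the uridine-cytidine kinase gene Uck2 (2.17) were higher at 48 h. The peroxisomal oxidase gene Acox2 (-2.17), the olfactory receptor gene Or9s23 (-3.47) and Ptbp3 (-3.89) were lower at 48 h than at 24 h. Against the mean of 4, 8 and 12 h, Gal (4.47), Ralgps2 (3.11), Npy (2.92), Ihh (2.90) and the interferon-induced gene Ifitm3 (2.50) were higher. Map2k1 (-2.72), Or9s23 (-2.75), Ptbp3 (-3.28), A4galt (-3.90) and Prf1 (-3.97) were lower than in those first hours.

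Npy, Slc22a4, Ifitm3 and Or9s23 had values on arrays 1 and 2 at 48 h, and Uck2 and Prf1 on arrays 1 and 3, so each of these rests on 2 arrays. Without array 1 at 48 h, the difference of Ralgps2 from the first hours was 1.25 (adjusted p = 0.529) and that of Ptbp3 was -1.57 (adjusted p = 0.596). Without array 2, the difference of A4galt was -1.47 (adjusted p = 0.348). Against 24 h, that of Acox2 was -1.75 without array 1 (adjusted p = 0.246), and that of Ptbp3 was -2.18 (adjusted p = 0.438). Array 2 has no value for Uck2 or Prf1, yet in the fit without it neither passed (adjusted p = 0.073 for Uck2 against 24 h and 0.0619 for Prf1 against the first hours). With scaling, Gal and Or9s23 passed against 24 h, and of the genes against the first hours Gal, Npy and Ihh did. Groups of 3 arrays are too small for a search for outlying samples.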

How the results depend on the processing

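The 177 calls at 48 h became 698 with equal weights, 493 with class weights (1 weight for full and 1 for sparse arrays), 558 with full arrays only, 87 with plate centering, 56 with array class as a block, and 1 with the arrays at 48 h only. A plain t-test on each probe's 48 h values gave 381 at an unadjusted p under 0.05 and 0 after Benjamini-Hochberg. Leaving out 1 array gave 49 to 113. The 11 calls between 48 h and 24 h became 44, 90, 26, 2, 4 and 5 with equal weights, class weights, the class block, scaling, the replicate block and plate centering, and 2 to 8 with an array left out. The 42 calls between 48 h and the first hours became 180 with equal weights, 184 with class weights, 10 with scaling, and 11 to 39 with an array left out. The 0 calls between 48 h and 148 h became 70 with equal weights, 5 with class weights, 5 when probes were averaged by gene and 1 with plate centering. The cause of these shifts was not tested. Leaving out an array changed the estimated weights and variances as well as the number of arrays. The 45 named probes checked at 48 h leave out those named only for a difference between times. Of the 45, 45 passed with equal weights, 39 with scaling, 17 with the class block and 41 with the replicate block. None of the 45 changed sign, and 0 passed with the 48 h arrays alone. A replicate block left 146 calls at 48 h; arrays of the same number did not deviate together (median correlation -0.006, -0.141 to 0.117 over 77 pairs), so the numbers were not taken as pairs.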
